A study of Equus caballus with 2 samples.

Results

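VCAM1, ICAM1 and 7 further genes of the NF-κB response (TNFAIP3, TNFAIP2, NFKBIA, NFKB1, NFKB2, RELB and BIRC3) were followed in single cell sequencing libraries of equine endometrial fibroblasts. The 9 genes were taken by symbol and matched 10 of the 21426 rows of the deposited matrices, because the symbol BIRC3 is carried by 2 rows. They were picked from these data with their levels in the TGF-β1 and control libraries, and their presence in cells with VCAM1, already known. Their differences between the libraries are therefore given as descriptions.

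NF-κB is a family of dimeric transcription factors that is held in the cytoplasm by inhibitor proteins such as IκBα. Inflammatory cytokines and bacterial products activate kinases that remove the inhibitor, and the released dimers switch on adhesion molecules, chemokines, survival factors and their own inhibitors. In stromal cells of the endometrium and other organs, VCAM1 and ICAM1 are the surface proteins by which leukocytes attach, and transcription of both is known to respond to NF-κB.

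The fibroblasts came from the endometrium of mares and were cultured on collagen-coated hydrogels. The control group received no growth factor and the TGF-β1 group received 10 ng/ml of human recombinant TGF-β1, both for 24 h. Each group was 1 library in which the cells of 4 mares had been pooled, and the cells were not split by mare in what follows. There was thus no replicate of either group, no test was possible, and differences between treatment, library preparation and mare composition cannot be told apart. All intervals are at the 95% level and cover counting error only.

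Cells with at least 20000 UMIs (unique molecular identifiers, each counting 1 captured transcript), at least 3500 genes and under 4% mitochondrial UMIs were kept, which left 3865 of 4384 control barcodes and 4513 of 5124 TGF-β1 barcodes. The median depth was 50313 UMIs per control cell and 43142 per TGF-β1 cell, and 2 barcodes were shared by the kept cells of both libraries. Of the fibroblast markers, 11 of 11 exceeded 10 CPM (counts per 1000000 UMIs of the summed cells) in the control library. Of the pericyte and smooth muscle markers 6 of 11 did so as well, so this limit alone does not separate these cell types. Leukocyte and endothelial markers summed to 57.0 and 16.1 CPM in control cells against to 53.2 and 26.4 CPM after TGF-β1. Most of these sums came from CD68, CD14 and ERG, whereas the defining genes were nearly absent, with 1 and 0 UMIs of PTPRC and 9 and 8 UMIs of PECAM1 in the control and TGF-β1 libraries.

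The transcript abundance of the members was summed over the kept cells of each library. All 10 rows had a lower value in the TGF-β1 library, although that of NFKB2 changed sign under 3 of the alternative settings, and the size ranged from a near loss of VCAM1 to no measurable difference for NFKB2. Over all 12116 rows with a mean of at least 1 CPM, 51.3% had a lower value in the TGF-β1 library and the share more than 2-fold lower was 3.46%. Of the members, 3 rows were more than 2-fold lower, namely VCAM1, TNFAIP2 and NFKBIA, and none was more than 2-fold higher, against 3.45% of all rows (6.91% in either direction). Because these differences were known when the members were picked, the count describes them and is not a result about NF-κB targets in general. TNFAIP3 fell just short of the 2-fold limit at 1.93-fold lower.

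**Figure D1:**
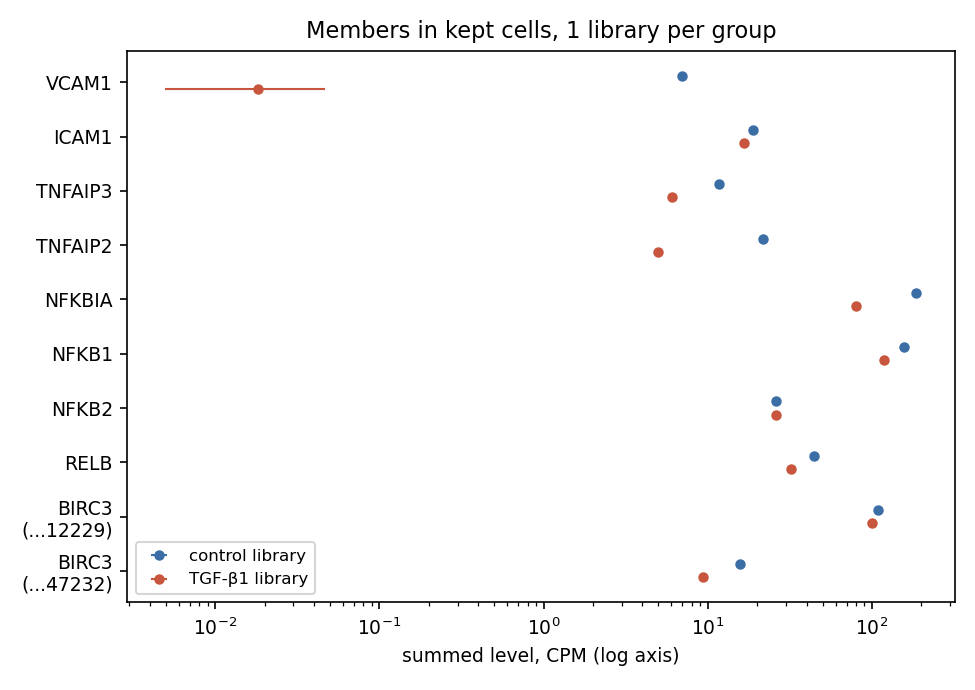
Summed level of each member in CPM (log axis) in the kept cells of the control library and the TGF-β1 library, with exact Poisson intervals, which are narrower than most points. VCAM1 is separated by the widest gap, from 6.998 to 0.0182 CPM, whereas the points of NFKB2 coincide at 26.0 CPM.

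VCAM1, the adhesion molecule that binds the integrin α4β1 of leukocytes, had 1473 UMIs in control cells against 4 after TGF-β1. This amounted to 6.998 CPM (6.64 to 7.36) against 0.0182 CPM (0.00496 to 0.0466), a log2 ratio of -8.59 with a counting interval from -10.46 to -7.23. None of the 12116 rows had a lower ratio, a rank that is a description because VCAM1 was picked with its levels known. VCAM1 also passed the minimum of 1 CPM through the control level alone. ICAM1, the ligand of the β2 integrins of leukocytes, had 3988 UMIs or 18.9 CPM in control cells against 3657 UMIs or 16.6 CPM after TGF-β1. The log2 ratio of ICAM1 was -0.19 (-0.25 to -0.12), so that the 2 adhesion molecules, although both are NF-κB targets, differed widely in the size of their difference.

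The members that restrain NF-κB were lower in the TGF-β1 library. NFKBIA encodes IκBα, the inhibitor that is itself resynthesized after NF-κB activation, and measured 186 CPM (39243 UMIs) in control cells against 79.5 CPM (17461 UMIs) after TGF-β1, 2.35-fold lower. TNFAIP3 encodes A20, a ubiquitin-editing enzyme that ends NF-κB signaling, and measured 11.6 CPM (2449 UMIs) and 6.03 CPM (1324 UMIs), a log2 ratio of -0.95 (-1.05 to -0.85). TNFAIP2, a gene induced by tumor necrosis factor and named for it, measured 21.6 CPM (4555 UMIs) and 4.98 CPM (1095 UMIs) and was 4.34-fold lower (log2 ratio -2.12, -2.22 to -2.02). After VCAM1 it was the member with the lowest ratio.

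The subunits of NF-κB itself differed less. NFKB1, whose product is processed to p50, had 157 CPM in control cells against 119 CPM after TGF-β1, for a log2 ratio of -0.40 (-0.42 to -0.38). RELB, the transcriptional partner of p52 in the noncanonical pathway, had 44.6 and 32.1 CPM and a log2 ratio of -0.47 (-0.52 to -0.43). NFKB2, the precursor of p52, had 26.0 CPM in both libraries (5479 and 5717 UMIs), and the interval of its log2 ratio ran from -0.05 to 0.05. The subunits were thus each within 1.5-fold of the control level, and the direction of NFKB2 was not resolved.

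The symbol BIRC3 denotes an inhibitor of apoptosis that binds the TRAF adaptors of the tumor necrosis factor receptors. Its 2 rows may include a related gene such as BIRC2, and a split of reads between them was not tested. Both are therefore given by identifier and neither was assigned. The row ENSECAG00000012229 measured 109.4 CPM in control cells against 100.1 CPM after TGF-β1, for a log2 ratio of -0.13 (-0.15 to -0.10). The row ENSECAG00000047232 measured 15.7 and 9.37 CPM, a log2 ratio of -0.74 (-0.82 to -0.66). The rows of the same symbol thus differed in the size of the ratio.

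Shares of cells with a UMI were compared after each cell was thinned to 20000 UMIs. VCAM1 was found in 4.48% of the control cells (173 of 3865, 3.85 to 5.18) and in 1 of 4513 TGF-β1 cells (0.0222%, 0.00056 to 0.123), and without thinning in 259 and 3 cells (6.70 and 0.0665%). TNFAIP2 had a UMI in 31.1% of control cells (29.6 to 32.6) but 8.80% after TGF-β1 (7.99 to 9.66), or 55.0 and 19.5% without thinning. NFKBIA had one in 77.2 and 63.3%, or 88.8 and 79.4% without thinning. The share of TNFAIP2 was therefore lower by a wide margin, while NFKBIA was still detected in most cells of both libraries.

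For NFKBIA, the 90th percentile of the thinned counts was 10 UMIs in control cells and 4 in TGF-β1 cells, and the median was 2 and 1. TNFAIP3 was found in 16.2 and 9.71% of the thinned cells (29.5 and 18.1% without thinning). RELB was found in 54.9 and 44.7% (81.2 and 69.4% without thinning). These genes had both a lower share of cells and a lower level in the TGF-β1 library. The row ENSECAG00000047232 of BIRC3 was found in 20.8 and 13.2% of thinned cells (36.3 and 24.9% without thinning). Smaller gaps were seen for ICAM1 (25.6 and 23.8%, or 46.1 and 43.5% without thinning), NFKB1 (79.1 and 77.2%, or 92.6 and 90.2%) and the row ENSECAG00000012229 of BIRC3 (81.2 and 78.9%, or 95.2 and 92.7%). NFKB2 was found in 38.8 and 39.2% of the thinned cells, with overlapping intervals, and in 69.3 and 65.7% of the unthinned cells. No cell type without these genes was at hand to measure free RNA, so the share that free RNA adds was not measured.

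**Figure D2:**
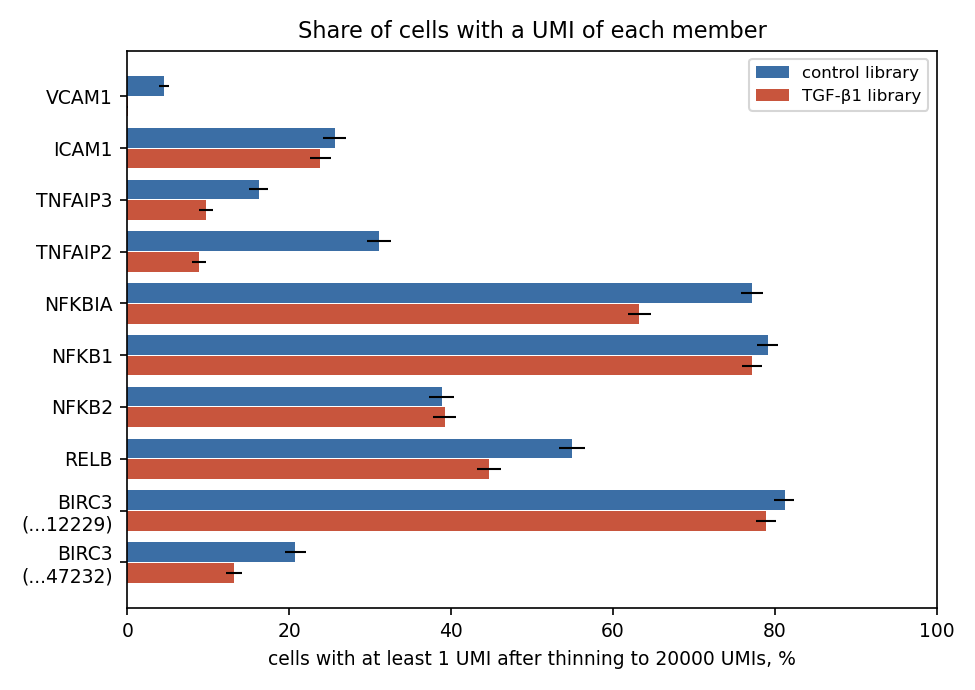
Percentage of kept cells with at least 1 UMI of each member after thinning to 20000 UMIs, for the control library and the TGF-β1 library, with exact binomial intervals. VCAM1 is at 4.48% and 0.0222%, the bars of TNFAIP2 stand at 31.1% and 8.80%, and those of NFKB2 overlap.

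VCAM1 was unevenly spread over the control cells. Of the 3865 cells, 3606 had no VCAM1 UMI, 88 had 1 UMI, 90 had 2 to 4 UMIs and 81 had 5 or more. The 81 cells, 2.10% of all (1.67 to 2.60), held 75.8% of the VCAM1 UMIs, and the highest count was 70 UMIs in 1 cell. The 26 cells with most VCAM1, each with at least 14 UMIs, held 44.7%. In the TGF-β1 library 2 cells had 1 UMI and 1 cell had 2, so that none reached 5 UMIs. The exact interval for 0 of 4513 cells runs up to 0.0817%, and 3 cells would be 0.0665%. VCAM1 was therefore concentrated in few control cells rather than carried evenly by all.

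The depth of the cells did not order the level of VCAM1. When the control cells were divided by depth into 3 equal parts, VCAM1 was found in 6.06% of the shallowest, 5.43% of the middle and 8.62% of the deepest cells, at 7.74, 5.69 and 7.51 CPM. Cells with VCAM1 had a median of 53077 UMIs and 6708 genes, and cells without it 50120 UMIs and 6519 genes. Their mitochondrial shares were 1.38 and 1.48%, and 1.54% of the cells with VCAM1 (4 of 259) and 2.19% of those without (79 of 3606) carried at least 3 cycling markers. The 519 control barcodes left out by the cell filters held 30 VCAM1 UMIs (7.92 CPM, 5.35 to 11.3) in 11 barcodes, and the 611 of the TGF-β1 library held 0, so the excluded barcodes differed in the direction of the kept cells.

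To place VCAM1 among the fibroblast subpopulations, 8 clusters were rebuilt from both libraries with the members removed from the clustering genes. VCAM1 was found in control cells of all 8 clusters, at shares from 3.34 to 13.8% without thinning. The share was highest in cluster 5, where 22 of 160 cells (13.8%, 8.82 to 20.1) had VCAM1 at 15.7 CPM. That cluster was led by CFD, CRABP2, SOD3 and SAA1, among which CFD is a complement protease and SAA1 an acute phase protein. The share was lowest in cluster 0, led by COL11A1 and holding MYH11 among its leading genes, with 22 of 658 cells (3.34%, 2.11 to 5.02) at 2.19 CPM. These clusters were taken as the extremes of the 8, so the gap between their intervals is a description. The intervals leave out differences between mares.

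**Figure D3:**
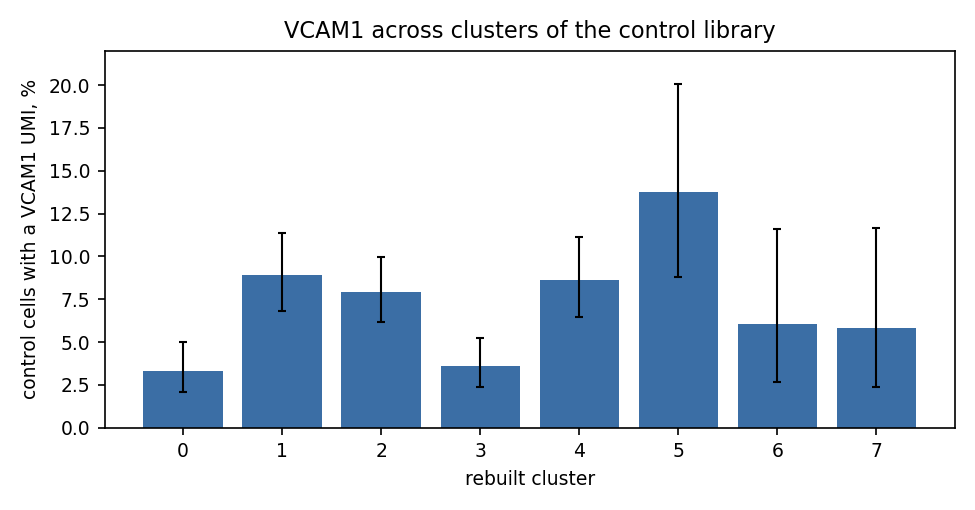
Percentage of control cells with a VCAM1 UMI (unthinned) in each of the 8 rebuilt clusters, with exact binomial intervals. Cluster 5 has the highest share at 13.8%, and clusters 0 and 3 have the lowest at 3.34% and 3.63%.

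Cluster 2, led by ALDH2 and with PTGS2 among its leading genes, contributed most of any cluster to the VCAM1 UMIs, with 27.6% of them from 20.9% of the control cells. Cluster 3, led by the keratins KRT7 and KRT8, had VCAM1 in 3.63% of its cells (2.41 to 5.24). Cluster 6, in which 9 of 9 cycling markers exceeded the remaining cells by over 2-fold, had VCAM1 in 6.06% (2.65 to 11.6), and cluster 7, led by CA4 and HBA2, in 5.83% (2.38 to 11.6). In clusters 1 and 4 the shares were 8.92% and 8.60%. After thinning the shares ran from 1.37% in cluster 0 to 10.6% in cluster 5. The median depth of cluster 5 was the lowest of the control clusters at 42106 UMIs, and that of cluster 6 the highest at 68604 UMIs.

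The lower values in the TGF-β1 library were then followed within clusters. Each of ICAM1, TNFAIP3, TNFAIP2, NFKBIA, NFKB1, RELB and the row ENSECAG00000047232 of BIRC3 was lower in 8 of 8 clusters. How many of all rows were lower in every cluster was not counted, so the counts by cluster are descriptions. The log2 ratio of TNFAIP2 lay between -2.28 (cluster 1) and -1.41 (cluster 7), and that of NFKBIA between -1.44 (cluster 5) and -1.10 (cluster 6). For RELB the range was narrow, from -0.55 to -0.38. With 12 clusters at a resolution of 0.8, TNFAIP3, TNFAIP2, NFKBIA, RELB and this BIRC3 row were again lower in every cluster with a ratio, whereas ICAM1 and NFKB1 were lower in 10 of 12.

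TNFAIP3 ranged from -1.43 in cluster 5 to -0.65 in cluster 4, and NFKB1 from -0.82 in cluster 5 to -0.09 in cluster 1. Before treatment was considered, cluster 5 also had the lowest control level of NFKB1, at 56.3 CPM compared with 202 CPM in cluster 0, and the highest of NFKBIA, at 275 CPM compared with 132 CPM in cluster 6. ICAM1 was lower in every cluster, but its interval lay below 0 in 3 of 8 and its ratio ran from -0.50 to -0.0079. NFKB2 was lower in 3 of 8 clusters, with the interval below 0 in 2 and above 0 in none. The row ENSECAG00000012229 of BIRC3 was lower in 7 clusters and higher in cluster 7, at a log2 ratio of 0.50 (0.31 to 0.68). VCAM1 had 2 or fewer UMIs in every cluster of the TGF-β1 library, and no ratio is given for it by cluster.

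**Figure D4:**
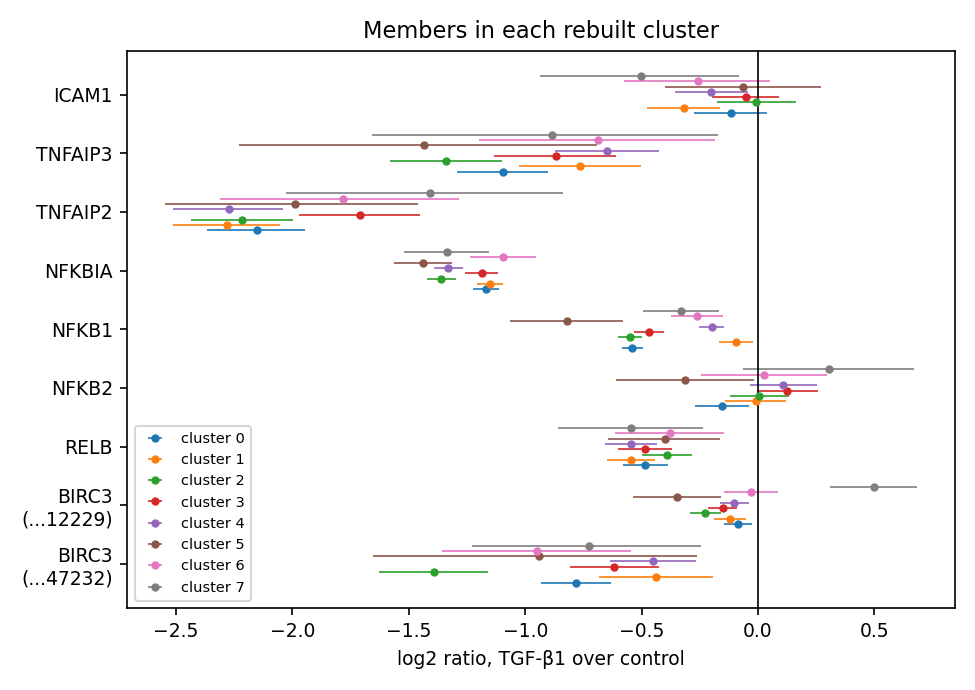
Log2 ratio of TGF-β1 over control for each member other than VCAM1 in each of the 8 rebuilt clusters, with exact counting intervals and a line at 0. All 8 points of TNFAIP2, NFKBIA, TNFAIP3 and RELB lie left of 0, and the points of NFKB2 lie on both sides.

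The other members were then described in the 259 control cells with and the 3606 without a VCAM1 UMI. These cells were not split by mare, so a difference in mare between them was not tested. All 9 other rows had a higher value in the cells with VCAM1, although the row ENSECAG00000012229 of BIRC3 turned lower under 5 of 7 alternative settings, and over the 7695 rows with at least 10 CPM the share was 54.8%. The presence of the members in cells with VCAM1 was known when they were picked, so this count and those that follow are descriptions and nothing is read from their distance to all rows. TNFAIP2, RELB, ICAM1 and the less abundant BIRC3 row had the highest ratios, while the more abundant BIRC3 row was nearly equal. More than 1.5-fold higher values were found for 1 of the 9 rows, TNFAIP2, against 0.676% of all rows, and lower values of that size for none, against 0.286%.

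TNFAIP2 measured 34.5 CPM in cells with VCAM1 and 20.6 CPM in cells without, a log2 ratio of 0.74 (0.61 to 0.87). The row ENSECAG00000047232 of BIRC3 measured 21.9 and 15.2 CPM (0.52, 0.36 to 0.69). ICAM1 measured 26.0 and 18.4 CPM (0.50, 0.35 to 0.65). The ratio of the median row over all 7695 was 0.01 and the 5th and 95th percentiles were -0.21 and 0.25. RELB measured 57.5 and 43.6 CPM (0.40, 0.30 to 0.50). NFKBIA measured 223 and 184 CPM (0.28, 0.23 to 0.33), with 0.18 after standardisation over the clusters and 0.44 at 2 or more VCAM1 UMIs, and TNFAIP3 13.9 and 11.5 CPM (0.27, 0.06 to 0.48). NFKB1 gave 0.25 (0.20 to 0.31) and NFKB2 0.17 (0.02 to 0.31). At 3 or more VCAM1 UMIs the ratios of TNFAIP3, NFKB1 and NFKB2 were 0.57, 0.40 and 0.31. The row ENSECAG00000012229 of BIRC3 gave 0.02 (-0.06 to 0.09), and its thinned share was 79.2% with and 81.3% without VCAM1.

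The shares of cells, on which single cells of high count have little weight, had the same direction for the leading genes. After thinning, a TNFAIP2 UMI was found in 42.9% (36.7 to 49.1) of the cells with VCAM1 and in 30.3% (28.8 to 31.8) of those without, compared with 73.0 and 53.7% before thinning. RELB was found in 68.0 and 54.0% of the thinned cells (91.1 and 80.5% before). ICAM1 was found in 33.2 and 25.0% (56.8 and 45.3% before), and the row ENSECAG00000047232 of BIRC3 in 29.3 and 20.1% (49.0 and 35.4% before). Within the rebuilt clusters, TNFAIP2, RELB and this BIRC3 row were higher in the cells with VCAM1 in 8 of 8 clusters, and ICAM1, NFKBIA and NFKB1 in 7 of 8. TNFAIP3 was higher in 6 of 7 clusters with a ratio (lowest -0.57), NFKB2 in 6 of 8 (lowest -0.28) and the row ENSECAG00000012229 of BIRC3 in 5 of 8. The same counts by cluster were not made over all rows.

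The cells were further divided by their number of VCAM1 UMIs, a division made after the counts had been seen. ICAM1 measured 18.4 CPM in cells with 0, 21.5 CPM with 1, 24.2 CPM with 2 to 4 and 33.0 CPM with 5 or more VCAM1 UMIs. TNFAIP2 measured 20.6, 29.9, 32.8 and 41.4 CPM in the same order, and RELB 43.6, 47.4, 53.9 and 72.3 CPM. These 3 genes had higher values in each class with more VCAM1, although the intervals of neighboring classes partly overlapped. NFKBIA and NFKB1 did not follow this order and measured 184, 172, 269 and 228 CPM, and 155, 154, 201 and 200.3 CPM. The row ENSECAG00000047232 of BIRC3 measured 15.2, 23.0, 23.6 and 18.8 CPM, and was thus lower again in the class with most VCAM1. TNFAIP3 measured 11.5, 10.5, 15.0 and 16.3 CPM, and NFKB2 25.8, 24.7, 29.4 and 33.2 CPM. The row ENSECAG00000012229 of BIRC3 measured 109.3, 115.9, 114.2 and 100.6 CPM.

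**Figure D5:**
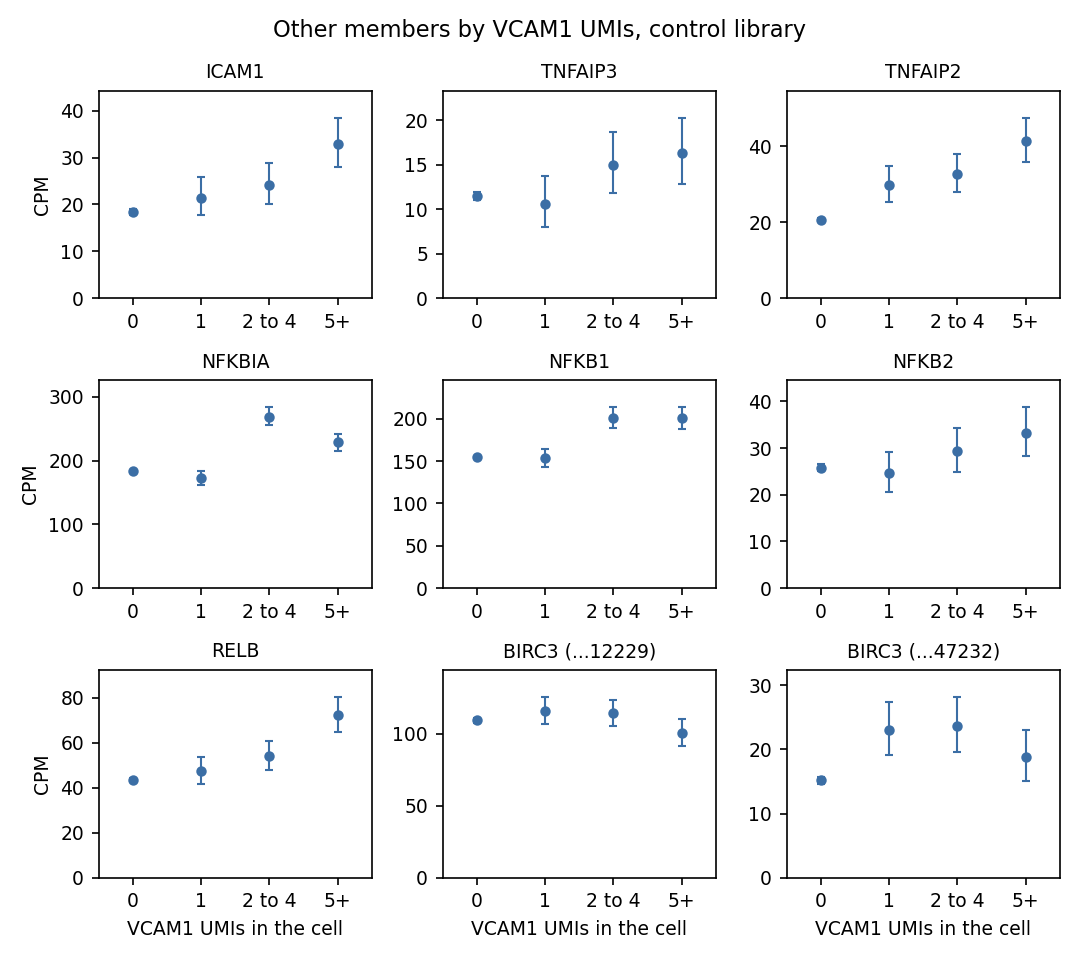
Summed level in CPM of each other member in control cells with 0, 1, 2 to 4, and 5 or more VCAM1 UMIs, with exact Poisson intervals and axes that start at 0. ICAM1, TNFAIP2 and RELB have their highest points, 33.0, 41.4 and 72.3 CPM, in the last class.

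Detection of the members in the same cells was also described without VCAM1. In the control library, a member was detected in a higher share of thinned cells when another was present in 68 of 72 ordered pairs of the 9 other rows, with a median difference of 5.63 percentage points and a range from -2.18 to 19.5. Over all ordered pairs of the 6280 rows detected in 16.2 to 81.2% of these cells, the range of the members, the share was 57.5% and the median difference 0.41 points. In the TGF-β1 library the same was found in 64 of 72 pairs, with a median of 3.94 points, against 57.8% and 0.37 points over pairs of the 7522 rows detected in 8.80 to 78.9% of its cells. Each pair is counted in both orders, which always have the same sign, so the counts hold every pair 2 times. The pairs also share cells, so these are descriptions. RELB, for example, was present in 64.0% of control cells with TNFAIP3 and in 53.2% of those without it.

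The genes whose pattern over control cells was most like that of VCAM1 were ranked by their ratio between cells with and without VCAM1. Among the 10 highest were the acute phase gene SAA1 (82.8 and 20.2 CPM, log2 ratio 2.03), the complement gene CFD (469 and 200 CPM, 1.23), and the neutrophil chemokines CXCL8 (157 and 73.1 CPM, 1.10) and CXCL6 (945 and 486 CPM, 0.96). EDNRB, the endothelin B receptor, measured 120 and 60.4 CPM (1.00). Most of the ranked genes rested on few cells. The 26 cells with most of a gene held 97.7% of its UMIs in the cells with VCAM1 for SAA1, 93.9% for TOP2A, 76.1% for APOE, 74.9% for NLGN1, 69.2% for CXCL8, 60.3% for ROBO1 and 56.7% for CFD. The share was below 50% for CXCL6 (40.3%) and EDNRB (34.7%) alone among the 10 highest. CXCL8 was detected in 38.6% of the thinned cells with VCAM1 and in 20.7% of those without.

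NLGN1 (1.28) and ROBO1 (1.04), which encode a synaptic adhesion protein and a guidance receptor, and APOE (0.99), an apolipoprotein, completed the list together with CENPF (2.08) and TOP2A (1.20), both expressed in dividing cells. CENPF owed its place to few cells, with 290 of its 571 UMIs in 1 cell, and was detected in 1.93% of thinned cells with VCAM1 and in 2.14% of those without. Without the cells that carried at least 3 cycling markers, the ratios of CENPF and TOP2A were -0.63 and 0.04, so that neither held its place. Both genes are among those markers, so their fall was in part fixed by the removal. When only cells with 5 or more VCAM1 UMIs were set against those with none, the ratio was 0.57 for SAA1, 0.36 for CENPF and -0.25 for APOE, while those of the other 7 highest genes lay between 1.05 and 1.62. The 5 lowest ratios were those of ACTG2, a smooth muscle actin (102 and 369 CPM, -1.85), ANKRD1 (15.6 and 43.7 CPM, -1.49), HBA2 (-1.36), INPP4B (-0.93) and NIBAN1 (-0.84). The 26 cells with most ACTG2 held 78.1% of its UMIs in the cells with VCAM1, and for ANKRD1 this share was 68.8%.

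The other genes of the pathway were taken from lists chosen with earlier results of these data known, so their counts are descriptions. Of 28 measured genes for other NF-κB subunits, inhibitors and kinases, 21 were lower and 7 higher after TGF-β1, where 51.3% of all rows were lower, with a median log2 ratio of -0.15 compared with -0.01 for all rows. Of the 20 that averaged 10 CPM or more, 14 were lower and the median was -0.07. Of the 28, only BCL3, an atypical IκB protein that binds p50 and p52, was more than 2-fold different, at 12.6 and 5.19 CPM (-1.28), where 6.91% of all rows were. The next lowest was TNIP1, an A20-binding protein (74.1 and 46.3 CPM, -0.68), and the highest were REL (0.38) and NKIRAS1 (0.36). RELA, which encodes the p65 subunit, measured 32.6 and 31.2 CPM (-0.07).

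Of 21 measured receptors and adaptors upstream of NF-κB, 15 were lower and 6 higher, none by more than 2-fold, with a median of -0.13 (51.3% of all rows were lower and 6.91% past 2-fold in either direction). The lowest were CD40 (12.3 and 6.73 CPM, -0.87) and IL17RC (-0.86), the latter a subunit of the interleukin 17 receptor. The highest were TNFRSF12A, the receptor of TWEAK (578 and 1129 CPM, 0.97), and TNFRSF11A (0.80). Both receptors for tumor necrosis factor, TNFRSF1A and TNFRSF1B, had log2 ratios of -0.84. Of the ligands of these receptors, TNF had 0 UMIs in both libraries and TNFSF11, which binds TNFRSF11A, had 65 and 464. The interleukin 1 ligands IL1B and IL1A had 8 and 7, and 337 and 129 UMIs.

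Of 29 measured rows for other known NF-κB targets, 20 were lower and 9 higher, with a median of -0.44, where 51.3% of all rows were lower. Of the 18 with at least 10 CPM, 12 were lower and the median was -0.29. Of the 29, 7 were more than 2-fold lower, where 3.46% of all rows were. These 7 were the complement factor CFB (-4.08), the pentraxin PTX3 (-3.62), the chemokines MIP-2BETA (-2.52) and CXCL6 (-1.22), the syndecan SDC4 (-1.52), the cytokine IL1A (-1.45) and the growth factor CSF1 (-1.05). Of these, CFB, PTX3 and IL1A were below 1 CPM after TGF-β1 and passed the minimum through the control level alone, and those with at least 10 CPM were MIP-2BETA, CXCL6, SDC4 and CSF1. PTX3 had 1214 UMIs in control cells against 103 after TGF-β1, and CFB 422 and 26. MMP9 (4.07 and 11.7 CPM, 1.52) and CCND1 (78.9 and 177 CPM, 1.16) were more than 2-fold higher, against 3.45% of all rows. Targets in the same list therefore differed in both directions, as with IER3, which measured 632 and 879 CPM (0.48), and GADD45B (0.67). IL6 and C3 were below the minimum of 1 CPM but, named after their values were seen, had 63 and 149 UMIs in control cells against 2 and 7 after TGF-β1. NINJ1 and CSF3, also below it, had 31 and 44 UMIs in control cells against 75 and 74.

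Among 20 measured adhesion molecules and their partners, 9 were lower and 11 higher, against 51.3% of all rows lower, and the median was 0.02. With a median-of-ratios size factor 6 were lower. Only MCAM was more than 2-fold different (5.78 and 1.75 CPM, -1.72), against 6.91% of all rows. The chains of the VCAM1 receptor α4β1 were not low, as ITGA4 measured 19.2 and 27.2 CPM (0.50) and ITGB1 709 and 915 CPM (0.37). Of the other integrin chains in the list, ITGA9 was lower (18.5 and 15.3 CPM, -0.28) and ITGAL had 0.22 (-0.06 to 0.50). Below the minimum of 1 CPM, ITGB7 had 56 and 33 UMIs, ITGB2 66 and 47, and ITGAM 51 and 50. EZR, which links adhesion molecules to actin, measured 171 and 85.9 CPM (-0.99), while its relatives MSN and RDX measured 0.24 and 0.13 on the log2 ratio scale. The list as a whole did not share the low values of VCAM1.

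Some marker lists moved beside these results. Epithelial markers summed to 134 CPM in control cells against 12.4 CPM after TGF-β1, almost entirely from KRT8 and KRT7, with 1 and 3 UMIs of EPCAM. In the control cells they were slightly lower with VCAM1, at 124 CPM compared with 135 CPM. Cycling markers summed to 53.5 and 30.9 CPM in the libraries and to 119 and 48.4 CPM in control cells with and without VCAM1. With VCAM1 9 of 9 markers were higher, where 54.8% of all rows with at least 10 CPM were. Only 2 of the 9 markers reached that minimum. Of the 571 CENPF UMIs in cells with VCAM1, 290 were in 1 cell, and cells with at least 3 cycling markers were 1.54% of those with and 2.19% of those without VCAM1. Pericyte and smooth muscle markers summed to 9152 and 12908 CPM in the libraries and to 7064 and 9317 CPM in cells with and without VCAM1. When the cells with at least 3 cycling markers were left out, all 9 other rows had higher values in cells with VCAM1, and the part of the epithelial and muscle markers was not tested.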

How the data were processed

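The authors deposited UMI counts for every gene and barcode, obtained from Cell Ranger and the EquCab3.0 assembly (7.1.0 in the methods and submitters' notes, 8.0.1 in the matrix headers). The authors used Seurat 5 and edgeR 4.2.2 downstream and removed doublets by genotype, which was not repeated, and no doublets were removed here. UMIs of kept cells (210497250 control, 219731144 TGF-β1) were summed and scaled to CPM in Python 3.11.15 (numpy 2.4.6, scipy 1.17.1, pandas 2.3.3). Ratios have no pseudocount and exact binomial intervals, levels exact Poisson intervals and shares Clopper-Pearson intervals. No ratio is given where both libraries have 3 or fewer UMIs or, within a cluster, where either side has. At this depth intervals are narrow for abundant genes, but the spread between mares lies outside them. Seurat 5.3.0 gave the rebuilt clusters (R 4.3.3; 2000 variable genes, less the members; 30 dimensions; canonical correlation integration; resolution 0.5), numbered anew and not matched to those of the study.

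Members and gene lists were chosen with earlier results of these data known. By symbol, 2 of 33 subunit, inhibitor and kinase genes, 7 of 45 targets, 4 of 32 adhesion genes and 4 of 33 interferon-gamma genes were not matched. The text names all members, list genes that average 1 CPM or more and differ by more than 2-fold, the 2 highest and 2 lowest ratios of each NF-κB list, and, among genes with a symbol and at least 10 CPM in control cells, the 10 highest and 5 lowest ratios between cells with and without VCAM1. Other genes are named as background to these. The scripts were tested on simulated data. Alternatives were other cell filters, scalings, thinning, VCAM1 limits, CPM minimums, fold limits and cluster resolutions.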

Additional observations from a re-analysis of the deposited data

How the results depend on the processing

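No paired analysis was possible because the counts of each group were 1 library whose cells were not assigned to mares here, and for the same reason no replicate could be left out. VCAM1 stayed between -8.62 and -8.11 (log2, TGF-β1 over control), TNFAIP2 between -2.18 and -2.10 and NFKBIA between -1.28 and -1.21 under the alternative cell filters and scalings, and 3 rows stayed more than 2-fold lower under each. NFKB2 changed sign with all barcodes (0.0012), with a median-of-ratios size factor (0.022, where all ratios shift by 0.023) and with standardised cluster shares (7.4e-05). The BIRC3 row ENSECAG00000012229 changed sign between cells with and without VCAM1 at 2 or more (-0.025) or 3 or more VCAM1 UMIs (-0.072), with VCAM1 counted after thinning (-0.014), without cells above the 98th percentile of depth (-0.052) and within 3 classes of depth (-0.037). The other 8 rows kept their sign there, with NFKBIA between 0.18 and 0.44, TNFAIP3 between 0.22 and 0.57, NFKB1 between 0.22 and 0.40 and NFKB2 between 0.15 and 0.31. The share of control cells with VCAM1 was 3.26% after thinning to 10000 UMIs and 6.70% without thinning, and that of TGF-β1 cells was 0 of 4513 at 10000 UMIs. A second thinning draw moved the members' shares by up to 1.95 percentage points and turned the order of the NFKB2 shares (38.4% of control and 37.8% of TGF-β1 cells). With a minimum of 10 CPM, 12 of 18 other targets and 5 of 13 adhesion genes were lower, and 6 of 20 adhesion genes were lower with a median-of-ratios size factor. Member rows lower in every cluster numbered 8 at a resolution of 0.3 and 5 at 0.8, against 7, and the share over all rows was not counted. The 837 rows more than 2-fold different became 2060 at 1.5-fold and 339 at 10 CPM. The 74 rows more than 1.5-fold different between cells with and without VCAM1 became 11 at 2-fold, 426 at a minimum of 1 CPM and 117 with VCAM1 counted after thinning. Chosen after seeing the data, removal of cycling cells took CENPF to -0.63 and TOP2A to 0.04, and a limit of 5 VCAM1 UMIs took SAA1 to 0.57, CENPF to 0.36 and APOE to -0.25.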

Other observations

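Among genes that respond to interferon gamma or carry its signal, such as IFNGR2 and JAK1, 21 were measured. Of these, 19 were lower and 2 (SOCS1, 0.47, and STAT2, 0.12) higher after TGF-β1. The median log2 ratio was -0.72, and 7 were more than 2-fold lower. Over all rows, 51.3% were lower and 3.46% more than 2-fold lower. These were IRF7 (6.89 and 1.11 CPM, -2.63) and IRF9 (-1.01), transcription factors of the interferon response, the immunoproteasome subunits PSMB9 (48.2 and 7.996 CPM, -2.59), PSMB8 (86.8 and 19.4 CPM, -2.16) and PSMB10 (73.2 and 17.4 CPM, -2.07), the receptor subunit IFNGR2 (-1.44) and the antigen loading factor TAPBP (-1.27). In control cells with VCAM1, 14 of 14 genes of this list with at least 10 CPM were higher than in cells without it, with a median of 0.22, and 2 of them by more than 1.5-fold, against 54.8% and 0.676% of all rows. IFNGR2 measured 32.2 CPM with VCAM1 and 18.8 CPM without, and PSMB10 107 and 70.5 CPM. IRF1 is in this list and in that of NF-κB targets. The list was chosen with earlier results of these data known, so its counts are descriptions and nothing is read from their distance to all rows.

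Of 11 fibroblast markers 6 were lower and 5 higher, where 51.3% of all rows were lower and 6.91% were past 2-fold in either direction. Past 2-fold were PDGFRA (-1.60), THY1 (-1.30) and S100A4 (-1.21), all lower in the TGF-β1 library, and FAP (1.63), which was higher. The collagen gene COL1A1 had 0.19 and LUM 0.03. The epithelial keratins KRT8 (-4.67) and KRT7 (-1.46) and the cycling genes CDC20 (-1.36) and CDK1 (-1.23) were lower. Of 8 measured pericyte and smooth muscle markers 3 were lower and 5 higher, where 51.3% of all rows were lower. MCAM (-1.72) and the contractile gene CNN1 (1.23) were past 2-fold, where 6.91% of all rows were, and MYH11 was at -0.76. TNFSF11, a ligand of the tumor necrosis factor family that binds the TNFRSF11A receptor, had 65 UMIs in control cells against 464 after TGF-β1 (2.77). Mesothelial and lymphatic stroma markers summed to 237 and 294 CPM.

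In the barcodes left out by the cell filters, TNFAIP2 measured 30.9 CPM (25.6 to 37.0) in control cells against 4.93 CPM (3.09 to 7.47) after TGF-β1, and NFKBIA 148 and 74.0 CPM. RELB measured 49.1 and 46.0 CPM there, with overlapping intervals.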
